A study of Homo sapiens with 18 samples.

Results

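Interferon response genes are the genes that a cell switches on after interferon, together with support genes of class I antigen presentation. Here the group held 46 named genes: 44 interferon-induced genes, B2M, the light chain shared by class I molecules, and NLRC5, an activator of class I gene transcription, with the HLA region left out. All 46 were found among the 35544 genes matched in the tables, and 38 of them passed the filter on low counts that left 13519 genes for testing. The values come from bulk poly(A) RNA-seq of hiF-T, an established line of human fibroblast-like cells made from BJ skin fibroblasts that carries an inducible hTERT transgene. All 18 libraries carried a CRISPR guide, and the cells are labelled wild type apart from it. KDM1A knockdown was given by guides 2 and 3 (4 libraries), CDKN1A knockdown by guides 1 and 2 (4 libraries), SPP1 knockdown by guides 1, 2 and 3 (6 libraries), and control by backbone guides 1 and 2 (4 libraries), with biological replicates 1 and 2 for every guide. KDM1A encodes the histone demethylase LSD1, CDKN1A the CDK inhibitor p21 and SPP1 the secreted protein osteopontin. No time after guide delivery, interferon treatment or infection is given, and the sources used here do not state by which mechanism the guides act.

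Type I interferons bind the IFNAR1 and IFNAR2 receptor, whose kinases JAK1 and TYK2 phosphorylate STAT2 among other factors. With IRF9 it forms part of a complex that binds the interferon-stimulated response element (ISRE) in promoters. The induced genes sense viral RNA, block viral translation and entry, attach the small protein ISG15 to other proteins, or raise class I presentation. Fibroblasts can both make interferon beta and respond to it, and many of these genes are also transcribed at a low level without added interferon. KDM1A removes methyl groups from histone H3 lysine 4 as part of repressor complexes.

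The promoters of the group were searched for the ISRE. Nearly all members were named for induction by interferon, which acts through this element, so the share below describes the list and is not a test. RefSeq promoters on GRCh38.p14, from 250 bases before to 50 after the transcription start, were found for 38 of the 46 members. They were searched on both strands for the ISRE core GAAANNGAAA. The ISRE core was in the promoter of 27 of 38 members (71.1%), against 1195 of 27305 genes in the whole promoter table (4.38%). The 6 promoters printed here carry ISRE cores, in capitals, and are shown because 4 of the genes (IFI44L, OAS3, DTX3L and B2M) rose in KDM1A knockdown while ISG15 and IFIT1, with matches of the same kind, did not pass the test. All lie on the + strand, at chr1:78620198-78620497 for IFI44L, chr12:112938224-112938523 for OAS3, chr3:122564088-122564387 for DTX3L, chr15:44711267-44711566 for B2M, chr1:1013247-1013546 for ISG15 and chr10:89392373-89392672 for IFIT1.
IFI44L: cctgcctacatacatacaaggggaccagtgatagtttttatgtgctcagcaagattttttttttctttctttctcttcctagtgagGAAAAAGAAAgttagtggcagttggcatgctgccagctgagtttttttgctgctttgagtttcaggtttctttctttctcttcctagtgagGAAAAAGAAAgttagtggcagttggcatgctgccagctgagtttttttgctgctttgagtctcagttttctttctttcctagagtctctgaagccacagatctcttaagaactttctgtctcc
OAS3: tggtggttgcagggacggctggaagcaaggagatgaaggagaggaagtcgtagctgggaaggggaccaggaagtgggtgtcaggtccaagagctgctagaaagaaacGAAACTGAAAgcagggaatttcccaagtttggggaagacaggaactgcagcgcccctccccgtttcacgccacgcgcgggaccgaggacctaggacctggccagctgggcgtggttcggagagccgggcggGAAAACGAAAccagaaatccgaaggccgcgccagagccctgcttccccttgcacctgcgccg
DTX3L: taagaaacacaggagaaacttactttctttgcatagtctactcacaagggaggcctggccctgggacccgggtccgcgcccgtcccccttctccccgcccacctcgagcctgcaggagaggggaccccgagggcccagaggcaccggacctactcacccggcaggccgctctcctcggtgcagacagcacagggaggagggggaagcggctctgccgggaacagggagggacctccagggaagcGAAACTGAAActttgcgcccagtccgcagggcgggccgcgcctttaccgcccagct
B2M: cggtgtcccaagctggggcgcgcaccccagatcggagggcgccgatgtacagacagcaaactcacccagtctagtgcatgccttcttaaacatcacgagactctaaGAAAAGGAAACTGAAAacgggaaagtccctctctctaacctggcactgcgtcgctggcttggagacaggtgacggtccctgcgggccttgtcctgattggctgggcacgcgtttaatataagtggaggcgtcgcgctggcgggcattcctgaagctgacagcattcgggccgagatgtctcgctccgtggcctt
ISG15: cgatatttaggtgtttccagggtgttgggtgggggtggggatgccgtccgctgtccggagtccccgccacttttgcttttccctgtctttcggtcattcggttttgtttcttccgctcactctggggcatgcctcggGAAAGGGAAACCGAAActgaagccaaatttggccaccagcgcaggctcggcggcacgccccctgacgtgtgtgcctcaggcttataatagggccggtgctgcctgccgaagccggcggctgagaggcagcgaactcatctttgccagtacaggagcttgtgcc
IFIT1: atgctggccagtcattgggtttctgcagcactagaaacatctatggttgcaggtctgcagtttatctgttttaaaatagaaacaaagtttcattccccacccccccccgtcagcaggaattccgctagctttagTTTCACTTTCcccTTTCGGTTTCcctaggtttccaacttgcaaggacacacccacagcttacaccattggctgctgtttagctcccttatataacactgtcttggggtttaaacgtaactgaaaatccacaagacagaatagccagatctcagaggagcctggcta
IFI44L holds its match in 2 copies, inside a stretch of 85 bases that is repeated 91 bases further on. In B2M and in ISG15 the capitals are 2 overlapping matches. In IFIT1 both matches lie on the opposite strand and so read reversed and complemented. DTX3L and PARP9 are divergent neighbours, and the single match of each promoter is the same run of bases, chr3:122564332-122564341, which starts 6 bases before the DTX3L start and 41 bases before the PARP9 start.

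**Figure D1:**
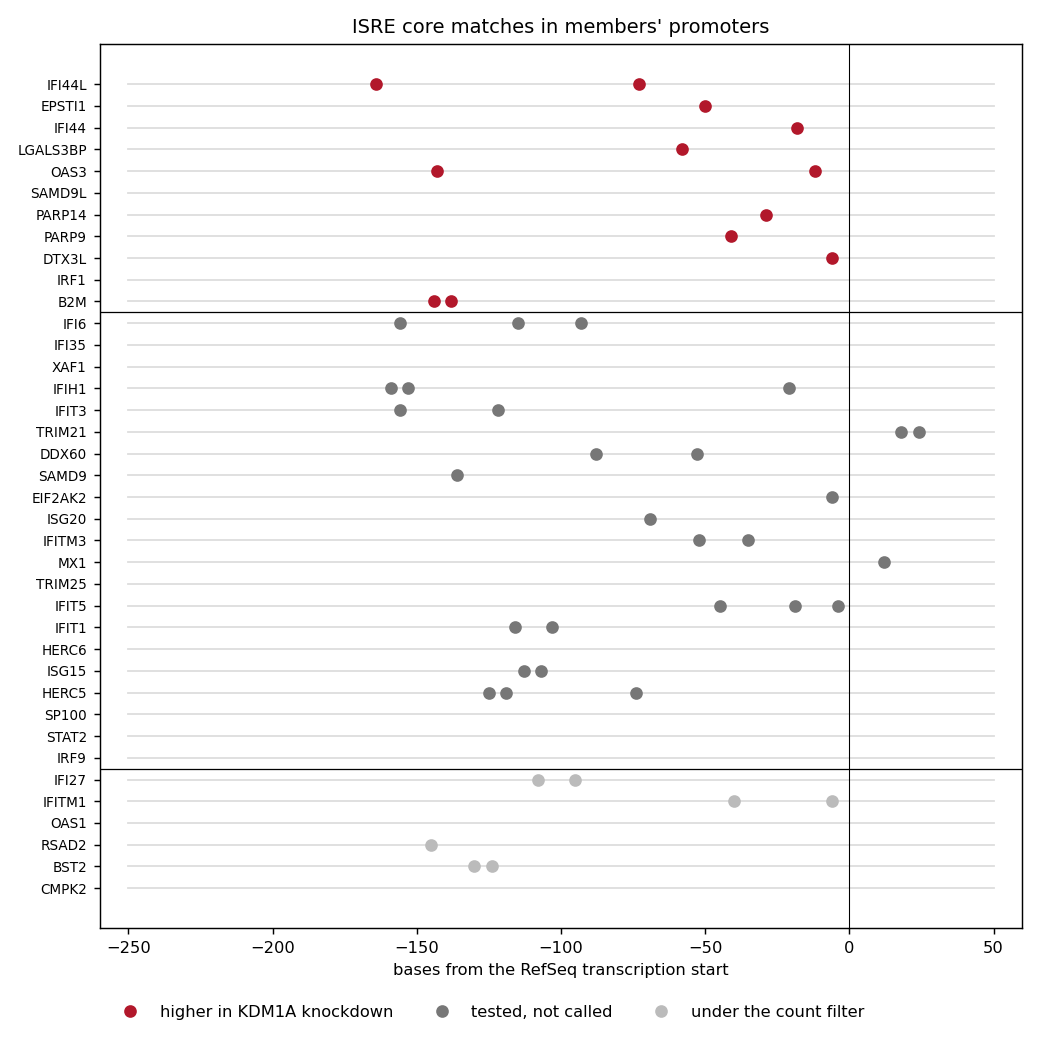
Positions of ISRE core matches (points; first base of each match) in bases from the RefSeq transcription start, for the 38 members with a promoter in the table, in 3 blocks: higher in KDM1A knockdown, tested but not called, and under the count filter. Matches stand in 9 of 11 promoters of the upper block and in 14 of 21 of the middle block.

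Each library held 11907197 to 17016094 estimated counts and 12471 to 13154 genes with at least 10 counts. The labels call the replicates biological but do not say that they were separate cultures, so the p-values measure the spread between these libraries. The targeted mRNA was measured before anything else. KDM1A stood at 73.2, 75.0, 50.7 and 52.0 CPM (counts scaled to a common library size) in the KDM1A knockdown libraries, given throughout in the order guide 2 replicates 1 and 2, then guide 3 replicates 1 and 2, against 119.6, 125, 119 and 110.2 CPM in control libraries, given as guide 1 replicates 1 and 2, then guide 2 replicates 1 and 2. That is 52.9% of control, or 62.6% with guide 2 and 43.4% with guide 3. CDKN1A was at 58.2% of control in its own knockdown, and SPP1 at 61.4% in its own, which did not pass the test (adjusted p = 0.0696). By guide, SPP1 was at 39.6% of control with guide 1 (adjusted p = 0.00827), 79.7% with guide 2 (adjusted p = 0.443) and 66.8% with guide 3 (adjusted p = 0.144). In the libraries labelled SPP1 guide 2 replicate 2 and SPP1 guide 3 replicate 1, SPP1 stood at 55.2 and 63.0 CPM, within the control range of 55.2 to 72.7 CPM, so SPP1 knockdown is here the name the labels give, not a measured loss in every library. KDM1A stayed near control in the other knockdowns, at means of 120.6 CPM in CDKN1A and 115.5 CPM in SPP1 knockdown, against 118.4 CPM in control. The means of SPP1 and CDKN1A differed from control in the other knockdowns, and are given here without a test. SPP1 averaged 132 CPM in KDM1A and 117 CPM in CDKN1A knockdown, against 64.6 CPM in control. CDKN1A averaged 487 CPM in KDM1A and 492 CPM in SPP1 knockdown, against 612 CPM in control. Its highest SPP1 knockdown library, at 543.2 CPM, overlapped the lowest control library, at 540.1 CPM. Of 7 fibroblast markers, 6 reached 1 CPM in every group, and THY1 was near 0. Of 8 leukocyte markers only CD68 reached 1 CPM, TYROBP was at 0 in every library, and their summed level was 50.4 to 56.9 CPM in KDM1A knockdown against 56.5 to 65.7 CPM in control. Of 4 plasmacytoid dendritic cell markers, whose summed level was 47.1 to 54.6 CPM in KDM1A knockdown and 47.1 to 64.6 CPM in control, LILRA4 was at 0 in every library, and TCF4 made up most of the sum (49.0 ± 3.49 CPM in KDM1A knockdown, 54.1 ± 8.65 CPM in control). IL3RA, of the same list, averaged 0.808 CPM in KDM1A knockdown and 1.408 CPM in control. Of 5 endothelial markers, only TEK reached 1 CPM in these groups (78.9 ± 12.7 CPM in KDM1A knockdown, 82.4 ± 4.545 CPM in control). Summed keratinocyte and melanocyte markers were at most 2.18 and 3.42 CPM in KDM1A knockdown and 2.31 and 3.205 CPM in control. Replicates of control guide 1 and of SPP1 guide 3 differed more from each other (mean chi-square per gene, 1 degree of freedom, 10.8 and 16.7) than those of the other 7 guides did (2.27 to 5.38). In bulk RNA, fewer cells expressing a gene and less RNA per cell cannot be told apart.

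In control cells most of the group was transcribed at a low level. In TPM, transcript abundances that allow for transcript length, B2M was highest at 974 ± 79.9 TPM (SD, n = 4), followed by IFITM3 at 271 ± 20.9 TPM, a membrane protein that blocks viral entry, and the nuclear body protein SP100 at 124 ± 4.52 TPM. These 3 did not overlap in their spread. TRIM25 (29.7 ± 3.74 TPM), ISG15 (28.7 ± 2.24 TPM) and the RNA-activated kinase EIF2AK2 (27.3 ± 3.89 TPM) came next and lay within each other's spread. IFI44L, the member that changed most, averaged only 1.05 ± 0.609 TPM in control. The 8 members that did not pass the filter were IFI27, IFITM1, OAS1, OAS2, OASL, RSAD2, BST2 and CMPK2, with at most 12 counts in any library. These include antiviral genes that interferon induces strongly, such as RSAD2, an enzyme that makes a chain-terminating nucleotide, and BST2, which tethers budding virus. CMPK2 had 0 counts in every KDM1A, CDKN1A and SPP1 knockdown library and at most 2 in a control library.

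In KDM1A knockdown 14 of the 38 tested members rose against control and none fell (edgeR quasi-likelihood test, adjusted p under 0.05 over 13519 genes). Among all genes tested, 9.06% changed, 5.33% rising and 3.73% falling, while 36.8% of the tested members rose. The members were chosen with earlier results of these data known, so these shares describe the list and are not a test of it. The median log2 fold change was 0.24 over the members and -0.01 over all genes tested, and 32 of 38 members had a positive fold change (84.2%, against 47.4% of all genes). A lean upward was not confined to KDM1A knockdown. Per library, 26 to 33 members lay above the control mean in KDM1A knockdown, 22 to 29 in CDKN1A and 24 to 30 in SPP1 knockdown. In control libraries 15 to 20 did. All 3 knockdowns share these control libraries. By role, those that rose were 4 of 7 tested genes without a single assigned function (the other induced genes), 4 of 7 in the ISG15 and ADP-ribosylation group, 3 of 18 sensors and antiviral effectors, 2 of 5 signalling and transcription factors, and B2M. In 15 members every KDM1A knockdown library lay above every control library, against 8.20% of all genes, namely the 14 that rose and IFIH1. HERC5, named after its values were seen, was the 1 member with every KDM1A knockdown library below every control library, against 7.49% of all genes.

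The 14 rises rest on 2 guides per group. With both libraries of a guide summed, so that guides are the replicates, IFI44L and SAMD9L passed and the other 12 did not. An offset for the transcript lengths left 9, without IRF1, LGALS3BP, NLRC5, OAS3 and PARP9. Without control guide 1, EPSTI1, IRF1, LGALS3BP and PARP9 did not pass, and without control guide 2, EPSTI1, IRF1, NLRC5 and PARP9 did not.

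**Figure D2:**
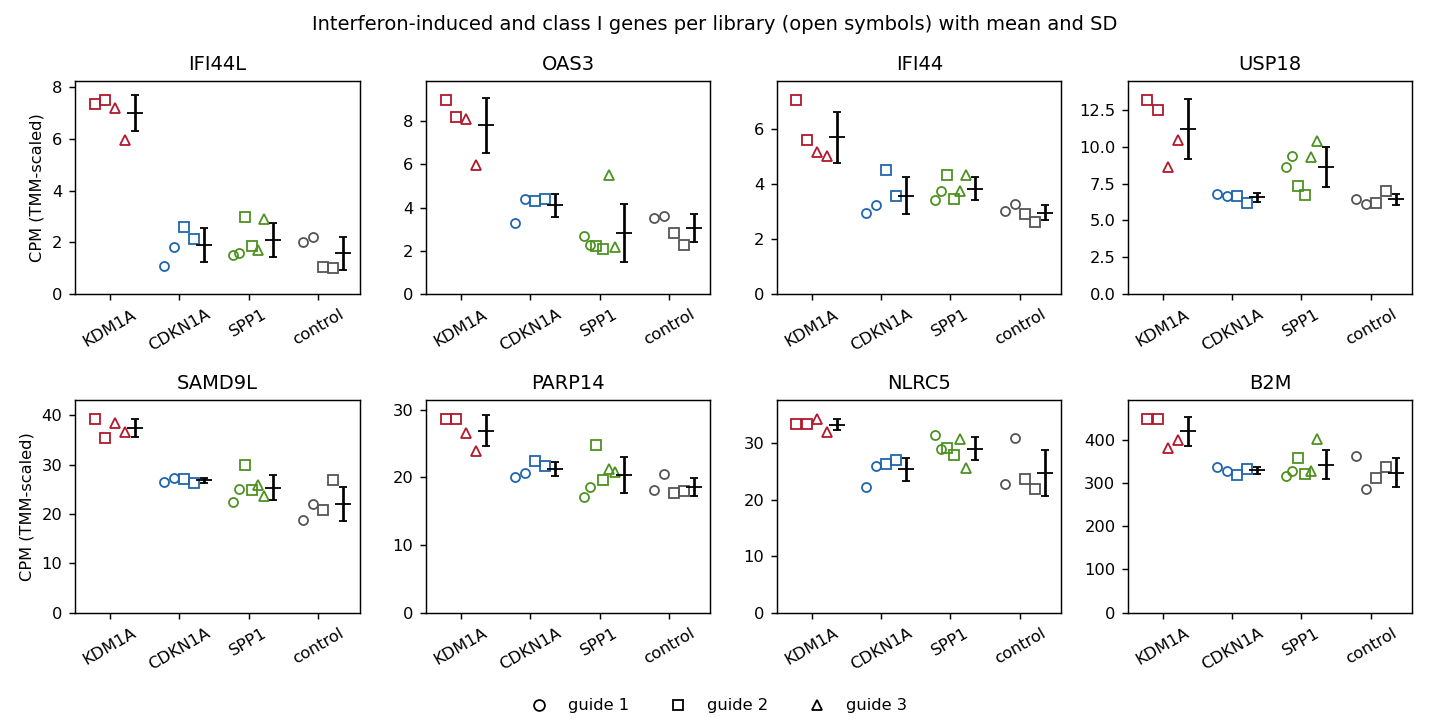
CPM (TMM-scaled) of 8 members in every library (open symbols, by guide) in KDM1A knockdown, CDKN1A knockdown, SPP1 knockdown and control, with the mean and SD of the group in black. In all 8 the KDM1A knockdown libraries lie above every control library, for example at 5.97 CPM or more against 2.23 CPM or less for IFI44L.

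The largest fold change of the 14 was that of IFI44L. It lies beside IFI44 on chromosome 1 (IFI44L at 78619922 to 78646145, IFI44 at 78649796 to 78664078, both on the + strand, GRCh38), and both encode interferon-induced cytoplasmic proteins. IFI44L measured 7.36, 7.49, 7.20 and 5.97 CPM in KDM1A knockdown libraries, against 2.00, 2.23, 1.06 and 1.01 CPM in control libraries. The groups did not overlap, and the model gave a log2 fold change of 2.14 ± 0.28 (SE; 4.41-fold, adjusted p = 5.95e-05). Its libraries held 93 to 120 counts in KDM1A knockdown and 13 to 32 in control, and the log2 fold change was 2.75 without control guide 1 and 1.73 without control guide 2. IFI44 measured 7.05, 5.61, 5.16 and 5.03 CPM in KDM1A knockdown libraries, against 3.04, 3.27, 2.91 and 2.64 CPM in control libraries. It too was higher in every KDM1A knockdown library, by 0.94 ± 0.15 (log2, adjusted p = 0.000549).

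EPSTI1, a stromal gene named for its induction by contact with breast cancer cells, was the lowest member to pass. It stood at 1.66, 1.19, 1.82 and 1.51 CPM in KDM1A knockdown libraries, against 0.830, 0.627, 0.463 and 0.699 CPM in control libraries. The groups did not overlap, with a log2 fold change of 1.22 ± 0.30 (adjusted p = 0.0147), on 19 to 25 counts per library in KDM1A knockdown and 7 to 12 in control. With the length offset it was 1.83. LGALS3BP, a secreted glycoprotein that binds galectins, had 33.3, 35.99, 28.6 and 26.6 CPM in KDM1A knockdown libraries, against 19.8, 21.9, 24.8 and 24.2 CPM in control libraries. It was higher by 0.46 ± 0.12 (log2, adjusted p = 0.0244) with no overlap, although the smallest gap lay between 26.6 CPM with KDM1A guide 3 and 24.8 CPM in control. The other 3 tested genes of this kind did not pass: IFI6, a mitochondrial and endoplasmic reticulum protein, at 0.17 (log2), IFI35 at 0.13 and the apoptosis factor XAF1 at -0.14.

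OAS3 makes the 2',5'-linked oligoadenylates that activate RNase L after viral RNA is sensed. It measured 8.95, 8.17, 8.07 and 5.97 CPM in KDM1A knockdown libraries, against 3.53, 3.62, 2.84 and 2.25 CPM in control libraries. No library overlapped, and the log2 fold change was 1.34 ± 0.25 (adjusted p = 0.00177). Its neighbours on chromosome 12, OAS1 and OAS2, were under the filter, with at most 7 and 4 counts in any library.

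SAMD9L and SAMD9, paralogous neighbours on chromosome 7, restrict poxviruses by blocking translation. SAMD9L had 39.3, 35.4, 38.5 and 36.6 CPM in KDM1A knockdown libraries, against 18.8, 21.9, 20.8 and 26.8 CPM in control libraries. All 4 KDM1A knockdown values exceeded the control values, by 0.76 ± 0.09 (log2, adjusted p = 1.82e-05), the smallest p of the group. SAMD9 averaged 53.5 ± 4.48 CPM in KDM1A knockdown and 45.5 ± 4.07 CPM in control (SD, n = 4 each), and its log2 fold change of 0.23 ± 0.08 did not pass (adjusted p = 0.0744). The paralogues shared under 0.2% of their 31-base sequences with any other gene.

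APOBEC3C, a cytidine deaminase that restricts retroviruses, stood at 43.5, 45.4, 50.2 and 49.8 CPM in KDM1A knockdown libraries, against 33.0, 34.6, 34.2 and 34.6 CPM in control libraries. The groups were separate and the log2 fold change was 0.47 ± 0.07 (adjusted p = 0.000386). Of its 31-base sequences, 9.38% also occur in other genes, mostly APOBEC3F.

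The other 15 tested sensors and effectors did not pass in KDM1A knockdown. Among the most abundant of them, IFITM3 had a log2 fold change of 0.15, TRIM25, a ubiquitin ligase that acts on the RNA sensor RIG-I, 0.09, EIF2AK2 0.19, IFIT5, which binds uncapped RNA, 0.07, and the cytoplasmic antibody receptor TRIM21 0.30. IFIT1, which binds viral RNA lacking cap methylation, averaged 2.33 ± 0.387 CPM in KDM1A knockdown and 3.13 ± 0.588 CPM in control, a log2 fold change of -0.41 ± 0.20 (adjusted p = 0.223). IFIT2 and IFIT3, from the same cluster on chromosome 10, had log2 fold changes of 0.05 and 0.37. IFIH1, the RNA sensor MDA5, averaged 2.22 ± 0.200 CPM in KDM1A knockdown and 1.31 ± 0.420 CPM in control and missed the threshold (0.76 ± 0.25, adjusted p = 0.0645). The GTPases MX1 (0.11) and MX2 (0.05), the helicase DDX60 (0.25), the exonuclease ISG20 (0.17) and the deaminase APOBEC3G (-0.35) complete this group.

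Among genes of ISG15 conjugation and ADP-ribosylation, the protease that removes ISG15 rose while ISG15 itself did not. USP18, which also blocks signalling at the interferon receptor, had 13.1, 12.5, 8.65 and 10.5 CPM in KDM1A knockdown libraries, against 6.43, 6.13, 6.21 and 6.99 CPM in control libraries. The groups did not overlap (0.80 ± 0.14, adjusted p = 0.000875). USP18 shares 28.8% of its 31-base sequences with the copy USP41. ISG15 had 6.18, 7.92, 8.95 and 10.2 CPM in KDM1A knockdown libraries, against 8.92, 8.29, 7.53 and 9.09 CPM in control libraries. The KDM1A knockdown values lay on both sides of the control values, with a log2 fold change of -0.02 ± 0.16 and a 95% interval of -0.35 to 0.31. The ISG15 ligase HERC5 averaged 1.17 ± 0.229 CPM in KDM1A knockdown and 1.72 ± 0.377 CPM in control (-0.55 ± 0.26, adjusted p = 0.222), and HERC6 had a log2 fold change of 0.43; neither passed.

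PARP9, DTX3L and PARP14 lie within a short stretch of chromosome 3. PARP9 and DTX3L form a complex that ubiquitinates histones, and PARP14 is a mono-ADP-ribosyltransferase. PARP14 had 28.6, 28.6, 26.6 and 23.9 CPM in KDM1A knockdown libraries, against 18.1, 20.6, 17.7 and 18.02 CPM in control libraries. It rose by 0.53 ± 0.09 (log2, adjusted p = 0.00115) without overlap. DTX3L had 22.6, 21.4, 19.2 and 16.9 CPM in KDM1A knockdown libraries, against 13.7, 15.8, 13.6 and 14.5 CPM in control libraries. Its values were also separate (0.48 ± 0.10, adjusted p = 0.00643), and the lowest of them came from guide 3. PARP9 had 9.503, 9.17, 8.80 and 9.05 CPM in KDM1A knockdown libraries, against 6.50, 6.97, 5.48 and 6.91 CPM in control libraries. The groups did not overlap and the log2 fold change was 0.50 ± 0.15, just inside the threshold (adjusted p = 0.0485). It passed in only 5 of the 18 fits that each left out 1 library. Reads over the shared PARP9 and DTX3L start can be divided between them, since 2.68% of DTX3L's 31-base sequences also occur in PARP9.

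Of the factors that carry the interferon signal to DNA, IRF1 rose slightly in counts summed per gene and the partners STAT2 and IRF9 did not pass. IRF1, which drives class I and other interferon gamma targets, had 8.16, 10.3, 9.09 and 9.05 CPM in KDM1A knockdown libraries, against 7.95, 7.66, 6.74 and 6.68 CPM in control libraries. The groups came close, at 8.16 CPM in KDM1A knockdown against 7.95 CPM in control, and the call (0.34 ± 0.10, adjusted p = 0.0434) held in 11 of the 18 fits that left out 1 library. In IRF1, 28.5% of the 31-base sequences also occur in other genes, mostly in the overlapping C5orf56. The IRF1 transcript with most counts overlapped between the groups. It averaged 4.27 ± 0.905 CPM in KDM1A knockdown and 4.345 ± 1.08 CPM in control. The rise was thus not seen in that transcript. STAT2 had a log2 fold change of 0.08 and IRF9 of -0.16. STAT2 also varied between control libraries, with 15.4 CPM in guide 1 replicate 1 and 30.7 CPM or more in the other 3, and 50.3% of the 31-base sequences of IRF9 occur in other genes. SP100 had a log2 fold change of 0.11 and did not pass.

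Both class I support genes rose in counts summed per gene. NLRC5 had 33.3, 33.4, 34.2 and 31.9 CPM in KDM1A knockdown libraries, against 22.7, 30.8, 23.6 and 21.9 CPM in control libraries. The groups did not overlap, though 1 control library, guide 1 replicate 2, stood close below them, and the log2 fold change was 0.42 ± 0.09 (adjusted p = 0.00528). The NLRC5 transcript with most counts (54.7% of the gene) did overlap. It averaged 15.7 ± 4.17 CPM in KDM1A knockdown and 14.4 ± 5.23 CPM in control, so the rise was not seen in that transcript. B2M had 448, 446, 381 and 400.1 CPM in KDM1A knockdown libraries, against 363, 285, 310.2 and 336 CPM in control libraries. All KDM1A knockdown libraries were above all control libraries, by 0.37 ± 0.08 (log2; 1.29-fold, adjusted p = 0.00518). The B2M transcript with most counts (49.5% of the gene) was separate too, at 187 CPM or more in KDM1A knockdown and 177 CPM or less in control.

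**Figure D3:**
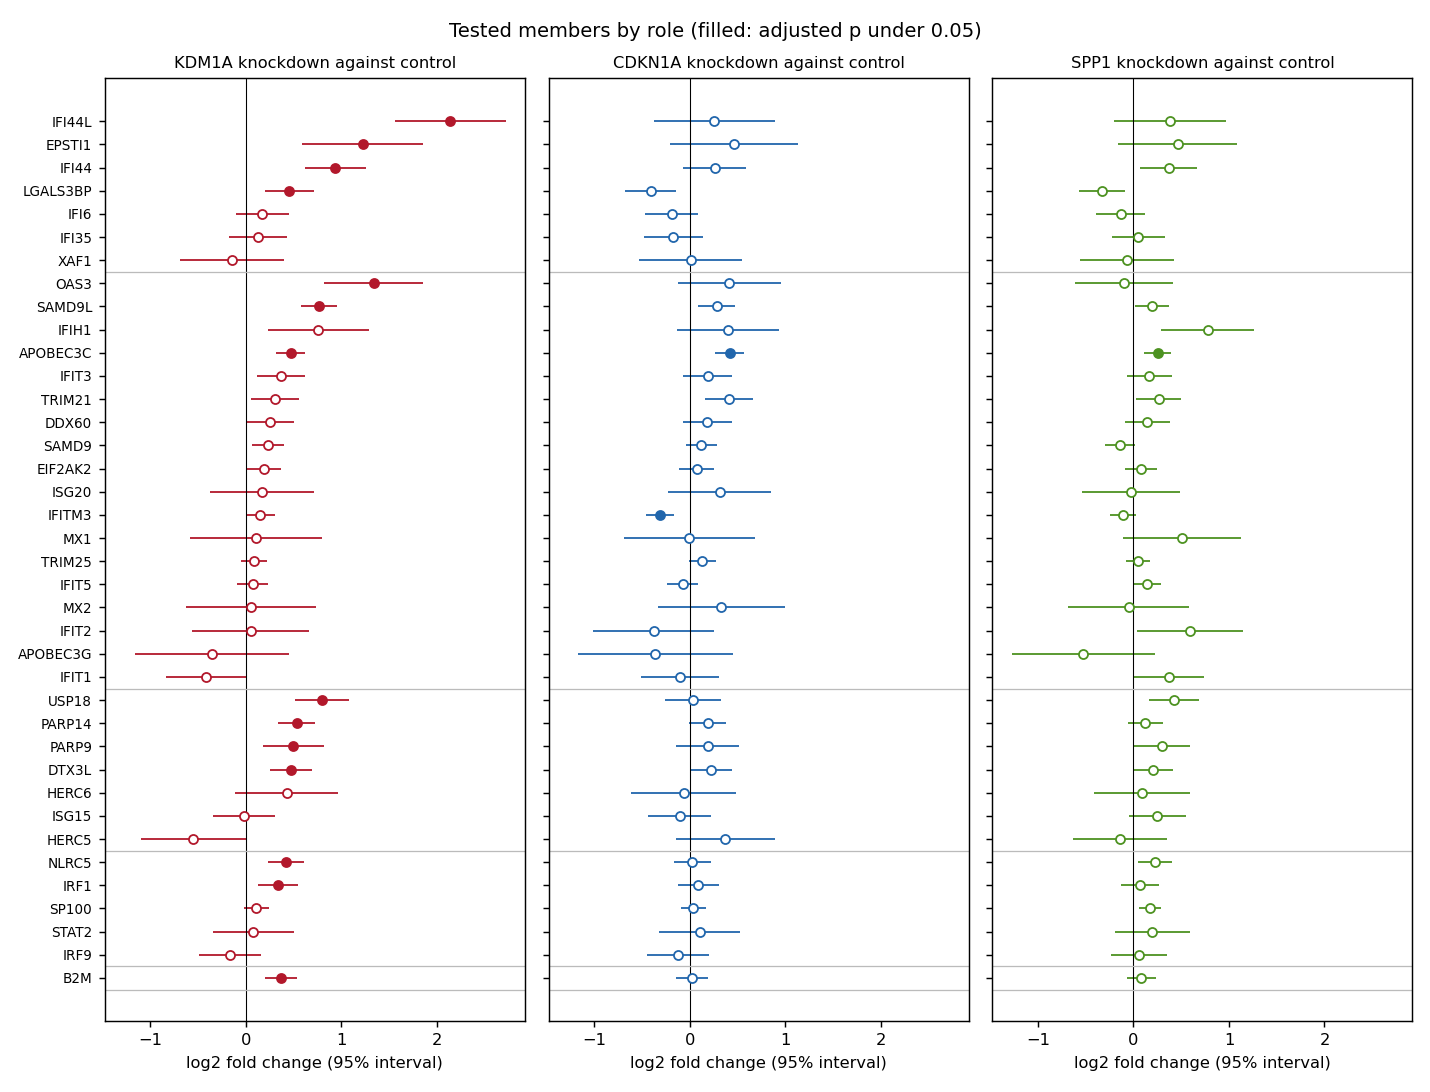
Log2 fold change (points) with its 95% interval for the 38 tested members in KDM1A, CDKN1A and SPP1 knockdown, each against control, with grey lines between the roles. Filled points passed the test: 14 in KDM1A knockdown, 2 in CDKN1A knockdown and 1 in SPP1 knockdown.

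**Figure D4:**
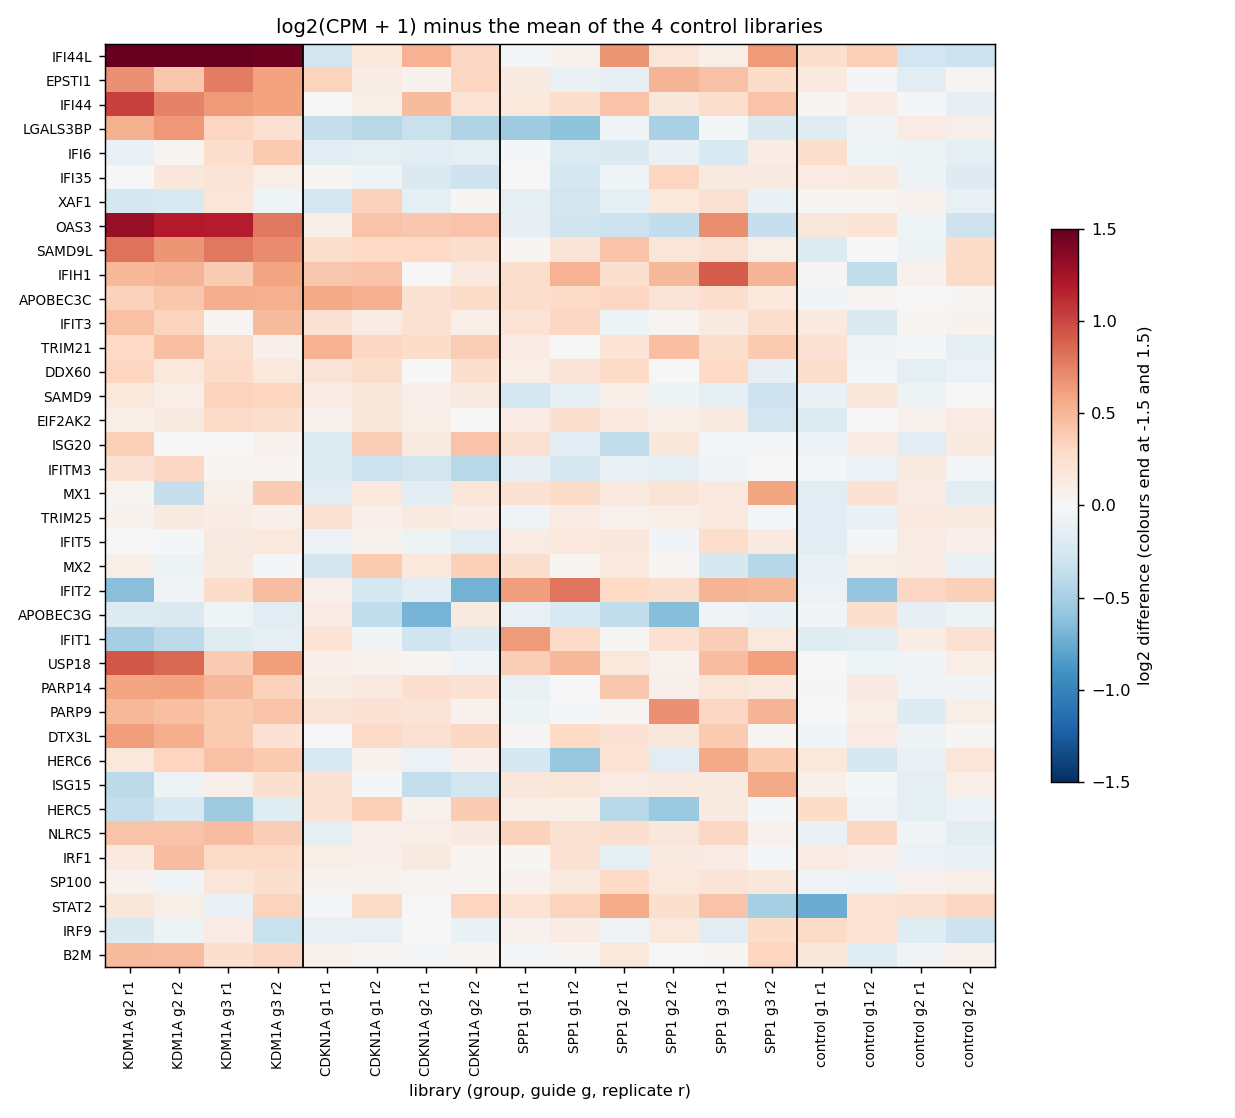
Difference of log2(CPM + 1) from the mean of the 4 control libraries for the 38 tested members (rows, by role) in every library (columns). The median over members was 0.191 to 0.299 in KDM1A knockdown libraries, 0.044 to 0.122 in CDKN1A, 0.0776 to 0.189 in SPP1 and -0.0549 to 0.0182 in control libraries.

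With the KDM1A guides taken singly against the 4 control libraries, guide 2 gave 14 members higher (8.42% of all genes) and 1 lower (5.70%, 14.1% in either direction), and guide 3 gave 11 higher (6.35%, 11.5% in either direction) and none lower. In this fit by guide the error is the spread between libraries of the same guide, and the spread between guides is left out. Its coefficient of variation was 6.91%, against 9.32% in the fit by group. Both guides called 8 members, against 3.71% of all genes. These were IFI44L, IFI44, OAS3, USP18, PARP14, SAMD9L, APOBEC3C and NLRC5. Outside the 14, IFITM3 and TRIM21 were higher with guide 2, and SAMD9 and SP100 with guide 3. PARP9, DTX3L, LGALS3BP and B2M passed with guide 2 only, EPSTI1 with guide 3 only and IRF1 with neither guide. The log2 fold change was larger with guide 2 in 11 of the 14, which were chosen from these same libraries. None of the 14 passed the direct test between the guides. B2M, for example, had 0.47 ± 0.09 with guide 2 and 0.27 ± 0.09 with guide 3. Guide 2 left more KDM1A mRNA than guide 3, and a link of this with the fold changes was not tested.

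Guide 3 was tested against guide 2 directly, and of the 38 members only SP100 passed, against 6.17% of all genes. SP100 had 182 and 190.0 CPM with guide 3, against 168 and 155 CPM with guide 2, a log2 fold change of 0.21 ± 0.06 (adjusted p = 0.0433). For USP18 the difference was -0.42 with a 95% interval of -0.67 to -0.16 (adjusted p = 0.0595). IFIT1 was lower with guide 2 (-0.61 ± 0.20, adjusted p = 0.0498) and had -0.21 ± 0.19 with guide 3, which did not pass. The guides share the control libraries, so a call with both is not a pair of independent results. The control guides did not differ in any member by edgeR's test in the main fit (0 of 38, against 1.35% of all genes). With no filter on low counts, some members did pass between them.

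**Figure D5:**
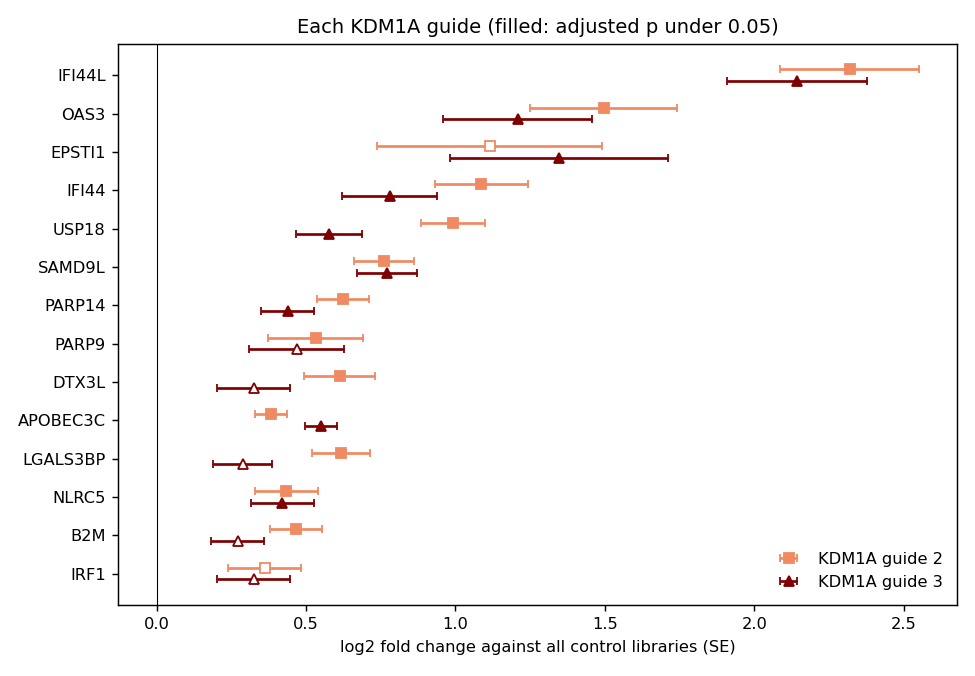
Log2 fold change with its SE for the 14 members that rose in KDM1A knockdown, for guide 2 (squares) and guide 3 (triangles) against all control libraries. The members were chosen from these same libraries, so points above 0 follow from that choice, and those of 8 members are filled for both guides.

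In CDKN1A knockdown 1 member rose and 1 fell, of 38, against 1.09% and 0.917% of all genes (2.00% in either direction). The member that rose was APOBEC3C, at 51.1, 49.9, 39.8 and 41.5 CPM in CDKN1A knockdown libraries (guide 1 replicates 1 and 2, then guide 2 replicates 1 and 2), against 33.0, 34.6, 34.2 and 34.6 CPM in control libraries. Its log2 fold change was 0.42 ± 0.07 (adjusted p = 0.00792), with no overlap. The member that fell was IFITM3, at 65.2, 59.2, 61.1 and 55.4 CPM in CDKN1A knockdown libraries, against 72.9, 70.0, 81.7 and 73.7 CPM in control libraries. Every CDKN1A knockdown library was below every control library, with a log2 fold change of -0.31 ± 0.07 ( adjusted p = 0.0325), and the call held in 12 of the 18 fits that left out 1 library. Without control guide 1, without CDKN1A guide 1 or with guides summed, neither gene passed, and IFITM3 did not pass without control guide 2 or CDKN1A guide 2 either. Of IFITM3's 31-base sequences, 56.0% also occur in other genes, the largest share in IFITM2.

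LGALS3BP, which rose in KDM1A knockdown, stood at 17.6, 16.6, 17.8 and 16.2 CPM in CDKN1A knockdown libraries, all below control, with a log2 fold change of -0.41 ± 0.13 that did not pass (adjusted p = 0.102). It did pass with each CDKN1A guide in the fit by guide (-0.40 and -0.41, log2), whose error leaves out the spread between guides. As for the guides one by one, CDKN1A guide 1 gave 4 of 38 members (4.71% of all genes), with TRIM21 and APOBEC3C higher and IFITM3 and LGALS3BP lower, and guide 2 gave 3 (6.23%), without TRIM21. APOBEC3C differed between these guides (-0.31 ± 0.06 for guide 2 against guide 1, adjusted p = 0.0184), the 1 member of 38 to do so against 1.28% of all genes. In all, 2 members had every CDKN1A knockdown library above every control library (6.46% of all genes), TRIM21 and APOBEC3C, and 3 had every library below (6.64% of all genes), IFITM3, LGALS3BP and IFI6. IFI6 had 5.87, 5.90, 5.86 and 5.93 CPM in CDKN1A knockdown libraries, against 8.23, 6.34, 6.28 and 5.98 CPM in control libraries, and did not pass (-0.19 ± 0.13, adjusted p = 0.524). IFI44L and B2M were not called here: IFI44L averaged 1.91 ± 0.645 CPM in CDKN1A knockdown and 1.57 ± 0.633 CPM in control, and B2M 329 ± 7.19 CPM in CDKN1A knockdown and 324 ± 33.6 CPM in control.

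In SPP1 knockdown 1 of the 38 members rose and none fell, against 2.40% and 3.06% of all genes (5.46% in either direction). It was again APOBEC3C, with lowest 38.1, median 41.0 and highest 42.7 CPM over 6 SPP1 knockdown libraries, against 33.0, 34.6, 34.2 and 34.6 CPM in control libraries. The lowest SPP1 knockdown library was above the highest control library, with a log2 fold change of 0.25 ± 0.07 (adjusted p = 0.0356), and the call held in 9 of the 18 fits that left out 1 library. It did not pass when any 1 of the control or SPP1 guides was left out, with guides summed, or without the pair of libraries in which SPP1 lay within the control range (0.26, adjusted p = 0.0871). APOBEC3C, IFI44 and ISG15 had every SPP1 knockdown library above every control library (2.97% of all genes). USP18 had lowest 6.75, median 8.94 and highest 10.4 CPM in SPP1 knockdown and 6.44 ± 0.388 CPM (mean, SD) in control, and missed the threshold (0.42 ± 0.13, adjusted p = 0.0575). IFIH1 missed it too (0.78 ± 0.23, adjusted p = 0.0591), with the highest value, 3.27 CPM, from the library labelled SPP1 guide 3 replicate 1, in which SPP1 was not below the control range. By guide, SPP1 guide 1 gave 4 of 38 members (4.58% of all genes), namely IFIT2, USP18 and APOBEC3C higher and LGALS3BP lower. Guide 2 gave SP100 and APOBEC3C higher (10.6%), and guide 3 gave IFIH1, USP18, SP100 and APOBEC3C higher (10.5%). Between SPP1 guides, HERC6 was higher with guide 3 than with guide 1 (1.22 ± 0.27, adjusted p = 0.0246). It was the 1 member of 38 to pass there, against 2.81% of all genes. By edgeR's test in the main fit, no member passed between guides 2 and 1 (2.40%) or 3 and 2 (0.215%). The 3 comparisons share the control libraries, and APOBEC3C was at 33.0 to 34.7 CPM in all 4 of them.

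The fold changes were then compared between the knockdowns themselves. Against CDKN1A knockdown, 10 members were higher in KDM1A knockdown and 1 was lower (8.06% and 6.92% of all genes, 15.0% in either direction). Those higher were IFI44L, IFI44, LGALS3BP, OAS3 (0.92, log2), SAMD9L (0.48), IFITM3 (0.46), USP18, PARP14, NLRC5 and B2M. The KDM1A knockdown libraries are those of the comparison with control, so these calls do not stand apart from it. IFI44L was higher in KDM1A than in CDKN1A knockdown by 1.88 ± 0.27 (log2, adjusted p = 0.000112) and than in SPP1 knockdown by 1.76 ± 0.24 (adjusted p = 8.44e-05). LGALS3BP was higher by 0.87 ± 0.13 against CDKN1A knockdown (adjusted p = 0.000125) and 0.79 ± 0.11 against SPP1 knockdown (adjusted p = 0.000152). For B2M the differences were 0.35 (adjusted p = 0.00552) and 0.29 (adjusted p = 0.0122). HERC5 was lower in KDM1A than in CDKN1A knockdown (-0.92 ± 0.26, adjusted p = 0.0196).

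Against SPP1 knockdown, 11 members were higher in KDM1A knockdown and 1, IFIT1, was lower (11.9% of all genes in either direction). Those higher were IFI44L, IFI44, LGALS3BP, OAS3 (1.44, log2), SAMD9L (0.57), SAMD9 (0.37), IFITM3 (0.27), USP18, PARP14, APOBEC3C and B2M. IFIT1 had 1.90, 2.12, 2.62 and 2.70 CPM in KDM1A knockdown libraries, against lowest 3.15, median 3.91 and highest 5.36 CPM in SPP1 knockdown libraries, which did not overlap. Its log2 fold change was -0.79 ± 0.18 (adjusted p = 0.00755). NLRC5 did not differ by the test between KDM1A and SPP1 knockdown (0.20, 95% interval 0.02 to 0.37). APOBEC3C differed between KDM1A and SPP1 knockdown (0.22 ± 0.07, adjusted p = 0.0375), and between KDM1A and CDKN1A knockdown its difference was 0.05 with an interval of -0.10 to 0.20. Between CDKN1A and SPP1 knockdown, SAMD9 was higher in CDKN1A knockdown and IFIT2 and USP18 were lower (12.1% of all genes in either direction).

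A wider list of 83 genes of the pathway, 64 of them tested, was measured beside the members. It too was chosen with earlier results of these data known, so its shares are a description. In KDM1A knockdown 15 of the 64 rose and 1 fell, against 5.33% and 3.73% of all genes tested. Of the interferon genes on this list, only IFNE passed the filter on low counts. IFNB1 had 1 count over the 4 KDM1A knockdown libraries and 0 over the 4 CDKN1A knockdown, 6 SPP1 knockdown and 4 control libraries. IFNG, IFNK, IFNL1, IFNL2 and IFNL3 had 0 counts in every group, and a count of 0 over the 4 control libraries allows up to 0.0522 CPM (3 counts, counting error only). IFNE, the 1 interferon gene tested, averaged 2.75 ± 0.302 CPM in KDM1A knockdown and 3.72 ± 1.04 CPM in control (-0.44 ± 0.21, adjusted p = 0.207). The chemokine CXCL10, a strong interferon target, had 0 counts in every group.

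The receptor chains IFNAR1 (0.10) and IFNAR2 (-0.01) did not pass in KDM1A knockdown. The kinase JAK1 fell, to 149.5 ± 9.63 CPM in KDM1A knockdown against 168 ± 6.30 CPM in control (-0.17 ± 0.05, adjusted p = 0.0485). The sensors DDX58 (RIG-I) and TLR3, and the RNA-binding antiviral protein ZC3HAV1, rose. DDX58 averaged 21.0 ± 1.71 CPM in KDM1A knockdown and 13.4 ± 1.39 CPM in control (0.64 ± 0.12, adjusted p = 0.00179). SAMHD1, which depletes the nucleotides needed by retroviruses, averaged 40.1 ± 5.31 CPM in KDM1A knockdown and 23.6 ± 0.739 CPM in control (0.76 ± 0.08, adjusted p = 3.93e-06). ERAP1 (0.31, log2) and ERAP2 (0.53), which trim peptides for class I molecules, rose too. SLFN11 (0.71), IFITM2 (0.65), APOL2, TDRD7, IL10RB, GBP1, GBP3, PML and STAT3 made up the rest, with log2 fold changes of at most 0.44 from APOL2 on.

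In CDKN1A knockdown 2 of the 64 genes passed, against 2.00% of all genes. TRIM22 rose (0.68 ± 0.14, adjusted p = 0.0177) and the GTPase GBP1 fell (-0.47 ± 0.08, adjusted p = 0.00853), opposite to its rise in KDM1A knockdown (0.32 ± 0.08). In SPP1 knockdown 4 rose, MAVS, SP110, APOL2 and TDRD7, and 2 fell, IFNGR2 and TMEM173, which encodes the adaptor STING, against 5.46% of all genes in either direction. Without the pair of libraries in which SPP1 lay within the control range, a setting chosen after seeing the data, 1 of the 64 passed. The share of all genes under that setting is not given, and fewer libraries can lower calls in any gene. This lower count is therefore not read as particular to these genes. SP110 changed most among those that rose (0.46 ± 0.09, adjusted p = 0.00954) and IFNGR2 among those that fell (-0.54 ± 0.14, adjusted p = 0.031).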

How the data were processed

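RNA from 18 libraries was sequenced after poly(A) selection. The authors' deposited tables hold estimated counts, effective lengths and TPM, which allow for transcript length, for 188753 transcripts per library, made with kallisto on hg38 or GRCh38 per the submitters' processing notes. Which kallisto version, options and transcript set were used is not stated in these sources. GENCODE 29 assigned 169754 transcripts (89.9%) to genes, and the unmatched ones held 2.51% to 2.63% of counts. The deposited estimated counts were summed per gene and rounded to whole numbers, and the deposited TPM were summed per gene for levels between genes. Genes were kept by filterByExpr with a count minimum of 10, scaled by TMM and tested with edgeR 4.0.16 in R 4.3.3 (quasi-likelihood, 1 coefficient per group, and another fit with 1 per guide), with Benjamini-Hochberg adjustment over 13519 genes and a threshold of 0.05. SEs come from the fold change and the F statistic. DESeq2 1.42.0, other filters, offsets and left-out libraries were alternatives. The procedure was tested on simulated data. Replicate numbers did not pair the libraries: none of 36 correlations of same-numbered libraries' deviations exceeded 0.1 (-0.117 to 0.0732). Estimated counts can divide reads between genes with shared sequence, so shared 31-base sequences were counted in the transcripts. The members and lists were chosen with earlier results of these data known. Values in every library are given for members called against control or between the KDM1A guides, and for B2M and NLRC5; the other members are given by counts and examples per role, chosen by control TPM, and those just past or short of a threshold, or in other comparisons, were added after their values were seen. Intervals cover the spread between libraries, and the limits for counts of 0 cover counting error only.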

Additional observations from a re-analysis of the deposited data

Results flagged for a closer look

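In groups of 4 or 6 libraries, 1 library stood apart in 3 of 64 groups over 16 members, and chance sets about 1 in 20 groups apart in this way. OAS3 was lowest in CDKN1A guide 1 replicate 1, at 3.284 CPM, with the other 3 CDKN1A knockdown libraries at 4.31 to 4.41 CPM. OAS3 was highest in the library labelled SPP1 guide 3 replicate 1, at 5.524 CPM, against a median of 2.24 CPM over the 6 SPP1 knockdown libraries. In that library SPP1 mRNA was at 63.0 CPM, within the control range of 55.2 to 72.7 CPM, and in the other replicate of the guide at 21.6 CPM. The part of this in the OAS3 value was not tested. PARP14 was highest in control guide 1 replicate 2, at 20.55 CPM, with the other 3 control libraries at 17.7 to 18.1 CPM.

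In 3 members, guides to the same gene differed by the test of the difference itself (edgeR, adjusted over all genes). SP100 was higher with KDM1A guide 3 than with guide 2 by 0.2083 on the log2 scale (adjusted p = 0.0433), and both guide 3 libraries lay above both guide 2 libraries. APOBEC3C had a log2 difference of -0.3146 with CDKN1A guide 2 against guide 1 (adjusted p = 0.0184), and it rose against control with each. HERC6 had a log2 difference of 1.2226 with SPP1 guide 3 against guide 1 (adjusted p = 0.0246). The cause of these differences was not tested.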

How the results depend on the processing

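The 14 rises in KDM1A knockdown kept their direction under all 31 alternative settings, and 11 of them passed whichever library was left out, the exceptions being IRF1, PARP9 and LGALS3BP. With a whole guide left out, 10 of the 14 passed without control guide 1 or without control guide 2, 9 without KDM1A guide 2 and 11 without KDM1A guide 3. Members called in KDM1A knockdown numbered 9 with a length offset and 2 with guides summed (11 to 15 with 1 library left out), and pathway genes, 16 in the main result, 9 and 3, with 6 without control guide 1, 10 without control guide 2 and 8 without control guide 1 and SPP1 guide 3, a setting chosen after seeing the data (12 to 16 with 1 library left out). The replicate block, from numbers that did not pair libraries, gave 13 members and lost IRF1; it also gave 0 for KDM1A guide 3 against guide 2. In CDKN1A knockdown the 2 members became 1 with the length offset or without CDKN1A guide 2, and 0 with guides summed, without control guide 1, without CDKN1A guide 1 or without control guide 1 and SPP1 guide 3 (1 to 2 with 1 library left out); the 2 pathway genes became 4 with both groups fitted alone, 1 without CDKN1A guide 2 and 0 under the same other settings (1 to 2). In SPP1 knockdown the 1 member, APOBEC3C, became 4 with DESeq2, 2 without control guide 2 (IFIH1 and SP100, with APOBEC3C lost), and 0 without the pair of libraries in which SPP1 lay within the control range (also chosen after seeing the data), with no filter, the length offset, guides summed, without control guide 1, without SPP1 guide 3 or without both (0 to 2 with 1 library left out); the 6 pathway genes became 1 with the length offset or without that pair, 2 with both groups alone or without SPP1 guide 2, 3 without SPP1 guide 3, and 0 with guides summed, without control guide 1 or without both (3 to 6). KDM1A against CDKN1A knockdown gave 7 with the length offset, guides summed or without CDKN1A guide 2, and 6 without CDKN1A guide 1 or KDM1A guide 2 (10 to 12 with 1 library left out, 11 in the main result). KDM1A against SPP1 knockdown gave 4 with guides summed and 5 without KDM1A guide 2 (8 to 13, main 12). CDKN1A against SPP1 knockdown gave 1 with the length offset, without either CDKN1A guide or without SPP1 guide 3, and 0 with guides summed or without SPP1 guide 1 (0 to 4, main 3). With no filter, 2 members passed between control guides, between SPP1 guides 3 and 1 and between SPP1 guides 3 and 2, and 4 with SPP1 guide 2 against control. Shares of all genes under these alternative settings are not given. The counts thus show dependence on the setting and are not read as particular to the members. The direction turned for NLRC5 in CDKN1A knockdown, at -0.0723 without control guide 2 and -0.0368 without CDKN1A guide 2, with a range of -0.0177 to 0.159 when 1 library was left out (-0.0069 without control guide 1 replicate 1), and for B2M there at -0.0266 without control guide 1 replicate 2 (range -0.0266 to 0.0848). Neither was called. Over all members, 41 of the 97 member and comparison pairs that were not called changed sign in at least 1 setting, among them ISG15 and IFIT2 in KDM1A knockdown and MX1 in CDKN1A knockdown. The cause was not tested. Low counts limit IFI44L and EPSTI1 in control, and 8 members could not be tested at this depth.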
